A study of Mus musculus with 3 samples.

Results

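The miRNAs of the imprinted Dlk1-Dio3 domain, the large miRNA cluster on mouse chromosome 12, were examined in cell-free RNA of serum from tumour-bearing mice. The members were all probes of the deposited serum table whose miRNA number belongs to this cluster, whatever the arm or letter suffix, which gave 58 of 566 probes. The rule reads probe names, and it was written with earlier results of these data known. All 58 matched a RefSeq miRNA gene on chromosome 12, and they represent 48 genes. The 46 of these genes with a hairpin entry all lie on the plus strand, within 180 kb at chr12:109563692-109743795 (GRCm38.p6).

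There were 3 serum pools, 2 of mice bearing Tn+ tumours and 1 of mice bearing Tn- tumours. The labels describe female BALB/c mice of 6 to 8 weeks that received 100000 cells of 4T1, a mouse mammary carcinoma line used to model triple-negative disease, into the mammary fat pad and were sacrificed at day 28. Tn is a truncated O-glycan, and the Tn+ line was derived from 4T1 by editing Cosmc with CRISPR/Cas9, a gene whose product lets O-glycans grow longer, while the labels do not say which 4T1 cells gave the Tn- tumours. Every pool thus came from mice with tumours, and no serum of tumour-free mice was analysed here. Groups held 8 or more mice, but the labels say neither how many a pool holds, nor whether separate mice gave the Tn+ pools, nor whether the edited line is 1 clone, and Cosmc itself cannot be checked on a miRNA panel. Serum was pooled before RNA extraction, and about 30 ng of RNA was hybridized to the NanoString nCounter Mouse v1.5 panel, which counts fluorescent barcodes without amplification. The p-values given below therefore reflect the spread of 2 Tn+ pools and nothing of the Tn- group, which has a single pool.

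The Dlk1-Dio3 domain is expressed from a single parental allele per gene. Its protein genes Dlk1, Rtl1 and Dio3 are active on the paternal chromosome, while Meg3, Rian, Mirg and the miRNAs within and between them come from the maternal one. In mice the miRNAs are abundant in the embryo, the placenta and the brain, and most are low in adult blood cells and liver. A subset, miR-431, miR-433, miR-127, miR-434 and miR-136, lies antisense to Rtl1 and directs cleavage of its transcript.

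The miRNAs on which the values below turn are shown as RefSeq gives them (GRCm38.p6), 5′ to 3′, with the seed, bases 2 to 8, in capitals. They are the members above the floor, the lowest value that most probes of a pool share, in both Tn+ pools. After them come miR-380-5p and miR-666-5p, which each had a higher value in the Tn- pool than in both Tn+ pools. Where the probe name gives no arm (miR-431, miR-136, miR-299 and miR-376a), both arms of the hairpin are shown. The miRBase identifier deposited with each probe was not paired with an arm here, so which of the pair the probe captures was not settled.
miR-337-5p: cGGCGUCAugcaggaguugauu
miR-431-5p: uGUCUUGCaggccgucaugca
miR-431-3p: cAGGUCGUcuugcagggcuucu
miR-136-5p: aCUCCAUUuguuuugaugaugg
miR-136-3p: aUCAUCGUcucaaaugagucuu
miR-299a-5p: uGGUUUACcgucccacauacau
miR-299a-3p: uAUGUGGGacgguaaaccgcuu
miR-380-3p: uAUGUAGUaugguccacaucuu
miR-323-3p: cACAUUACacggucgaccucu
miR-376a-5p: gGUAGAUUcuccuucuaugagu
miR-376a-3p: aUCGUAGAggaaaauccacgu
miR-380-5p: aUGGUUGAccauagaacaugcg
miR-666-5p: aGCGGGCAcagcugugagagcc

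None of these seeds is shared with another gene of the cluster among the RefSeq sequences. Among the 91 mature sequences listed for the member genes there are 84 different seeds, and 7 seeds occur in a pair of genes. For miR-376c, miR-453, miR-485, miR-487b and miR-539 a single sequence is listed, so a pair through another arm of these is not counted. In these pairs miR-379 and miR-411 share a 3p seed, miR-494 and miR-410 share a 5p seed, and miR-376c and miR-376b share a 5p seed. In each of these 3 pairs a single gene had a probe above the floor in some pool, namely miR-411, miR-410 and miR-376c. Their probe names give no arm, so whether the arm with the shared seed gave the signal was not settled. The other 4 pairs involve miR-370, miR-379, miR-453, miR-496, miR-758, miR-1193 and miR-1197, all at the floor in every pool.

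Most Dlk1-Dio3 miRNAs had no signal above the floor (1 and 1.09 units for the Tn+ pools, 1.08 units for the Tn- pool). Above it lay 17 of the 58 probes in Tn+ pool 1 and 13 in Tn+ pool 2, against 5 in the Tn- pool. These are 29.3%, 22.4% and 8.62% of the members, beside 41.5%, 27.0% and 15.7% of the other 508 probes. Taken over pools, 24 members (41.4%) were above the floor in at least 1 pool, as were 46.3% of the other probes. In every pool the share was lower among the members than among the other probes, a difference that was not tested.

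**Figure D1:**
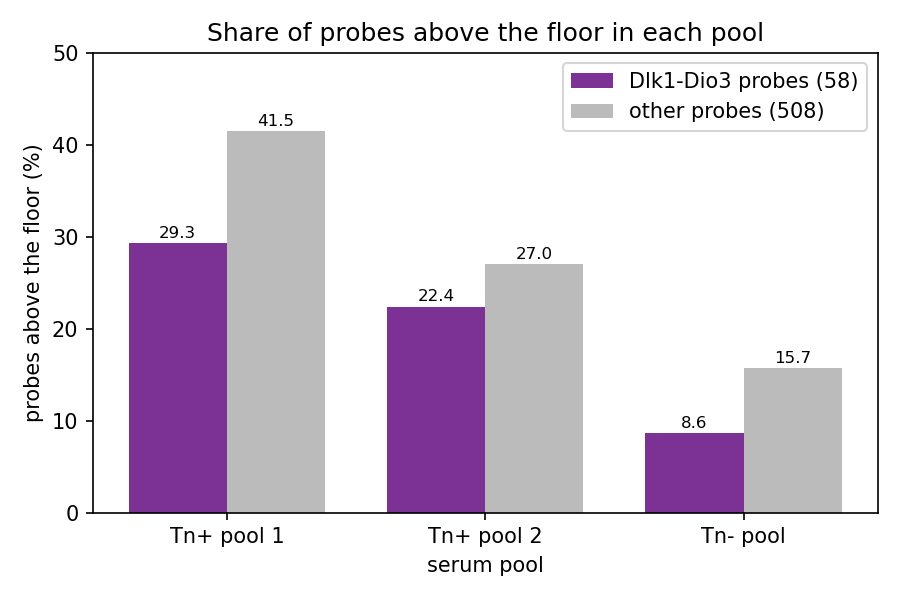
Bars give the percentage of probes above the floor (y axis) in each serum pool (x axis), for the 58 Dlk1-Dio3 probes and for the other 508 probes of the panel. The member bar is the lower of the pair in all 3 pools, and both bars are lowest in the Tn- pool, at 8.62% and 15.7%.

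The pools differed in total, and this moves with the counts. The summed normalized signal of all probes was 59444 units in Tn+ pool 1 and 31977 in Tn+ pool 2, against 4204 in the Tn- pool, with a large part from red cell miRNAs (44578, 15599 and 1956 units for miR-451, miR-144 and miR-486 together). Of all probes, 228 and 150 were above the floor in Tn+ serum, against 85 in Tn- serum. The part of this difference in the member counts was not tested. Low values lay on a grid (step 0.896 and 1.09 units in Tn+ serum, 1.08 units in Tn- serum), so that a value can be read as a level, level 1 being the lowest value above the floor. Of the member values above the floor, 62.9% were at level 3 or below, compared with 41.5% of such values over all probes.

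The members above the floor had low signal, within a panel whose probes may differ in efficiency, so that signal is no measure of abundance between miRNAs. Their median was 2.57 units in Tn+ pool 1 and 3.88 in Tn+ pool 2, against 2.65 in the Tn- pool, while the other probes above the floor had medians of 4.36, 9.32 and 4.81 units. Members reached 10 units for 1 probe in Tn+ pool 1 and 2 in Tn+ pool 2, and for none in the Tn- pool. The same limit was passed by 67, 69 and 28 of all probes. Signal of the members above the floor in each pool, 17 and 13 in Tn+ serum and 5 in Tn- serum, summed to 65.2 units in Tn+ pool 1 and 72.2 in Tn+ pool 2, against 15.4 units in the Tn- pool, or 0.11%, 0.226% and 0.367% of the pool totals. These sums run over different members in each pool and so move with the counts.

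miR-431, an Rtl1 antisense miRNA studied in mouse muscle stem cells (hairpin at chr12:109590447-109590537), was the brightest member. It had 10.6 units in Tn+ pool 1 and 16.9 in Tn+ pool 2, against 3.73 units in the Tn- pool, that is levels 11, 15 and 3. Both Tn+ pools lay above the Tn- pool, and their mean was 13.8 ± 4.46 units (SD, n = 2). On signal + 1 the Tn+ pools were 2.46-fold and 3.79-fold above the Tn- pool. The direction depends on the scale. The log2 ratio of the groups, 1.61 as deposited, was 0.16 after scaling by the median of ratios and -0.67 with the 100 highest probes. With equal totals it was -1.15, where Tn+ pool 1 lay at the floor set for all pools. miR-431 ranked number 66 in Tn+ pool 1 and number 49 in Tn+ pool 2 among all probes.

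The other Rtl1 antisense miRNAs were unequal. miR-136 had 2.57 and 7.14 units in Tn+ serum, against the floor in Tn- serum. miR-433 had 7.14 units in Tn+ pool 2 alone and the floor elsewhere. No pool had miR-127 or either arm of miR-434 above the floor. Of the 6 Rtl1 antisense probes 3 were thus above the floor somewhere, although their genes are neighbours.

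miR-299 was, beside miR-431, the member whose Tn+ values both passed 2-fold. It had 6.15 and 3.88 units in Tn+ serum, against the floor in Tn- serum. On signal + 1 these are 3.44-fold and 2.35-fold, values that depend on the height of the floor. Against 3 grid steps of the Tn- pool, 3.23 units, the deposited signals were 1.90-fold and 1.20-fold.

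The 5 other members, miR-136 among them, above the floor in both Tn+ pools were close to it in at least 1 of them. miR-376a, from a family whose precursors are edited from adenosine to inosine in mouse brain, had 2.57 and 8.23 units in Tn+ serum, against the floor. miR-337-5p had 4.36 and 2.79 units, and miR-380-3p had 3.46 and 1.70 units, both also at the floor in the Tn- pool. miR-323-3p had 2.57 and 10.4 units in Tn+ serum, against 2.65 units in Tn- serum, with level 2 both in Tn+ pool 1 and in Tn- serum. Probes of closely related members, such as the miR-376 family, can share signal.

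Both Tn+ pools exceeded the Tn- value for 6 of the 24 members above the floor somewhere (miR-431, miR-136, miR-299, miR-337-5p, miR-376a and miR-380-3p). The same holds for 42.1% of all probes with a value above the floor. Above the floor in both Tn+ pools but at it in the Tn- pool were 5 of the 58 members, while 11.7% of all probes were. Neither count stands above its background.

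The miRNAs with signal in the Tn- pool were few. miR-666-5p had the floor and 1.70 units in the Tn+ pools, against 4.81 units in the Tn- pool, where it was the brightest member (mature sequence at chr12:109717103-109717124). Its Tn+ values were the floor and level 1, so the size of its ratio depends on the height of the floor. miR-380-5p, known to repress p53 in neuroblastoma cells, had the floor in Tn+ serum, against 2.65 units in the Tn- pool. miR-376c had the floor and 1.70 units in the Tn+ pools, against 1.58 units in the Tn- pool, which are level 1 on either side. miR-431 and miR-323-3p complete the 5. In the Tn- pool no member stood above level 4. Higher in the Tn- pool than in both Tn+ pools were 2 members, miR-666-5p and miR-380-5p, of 24, beside 6.18% of all probes above the floor somewhere.

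**Figure D2:**
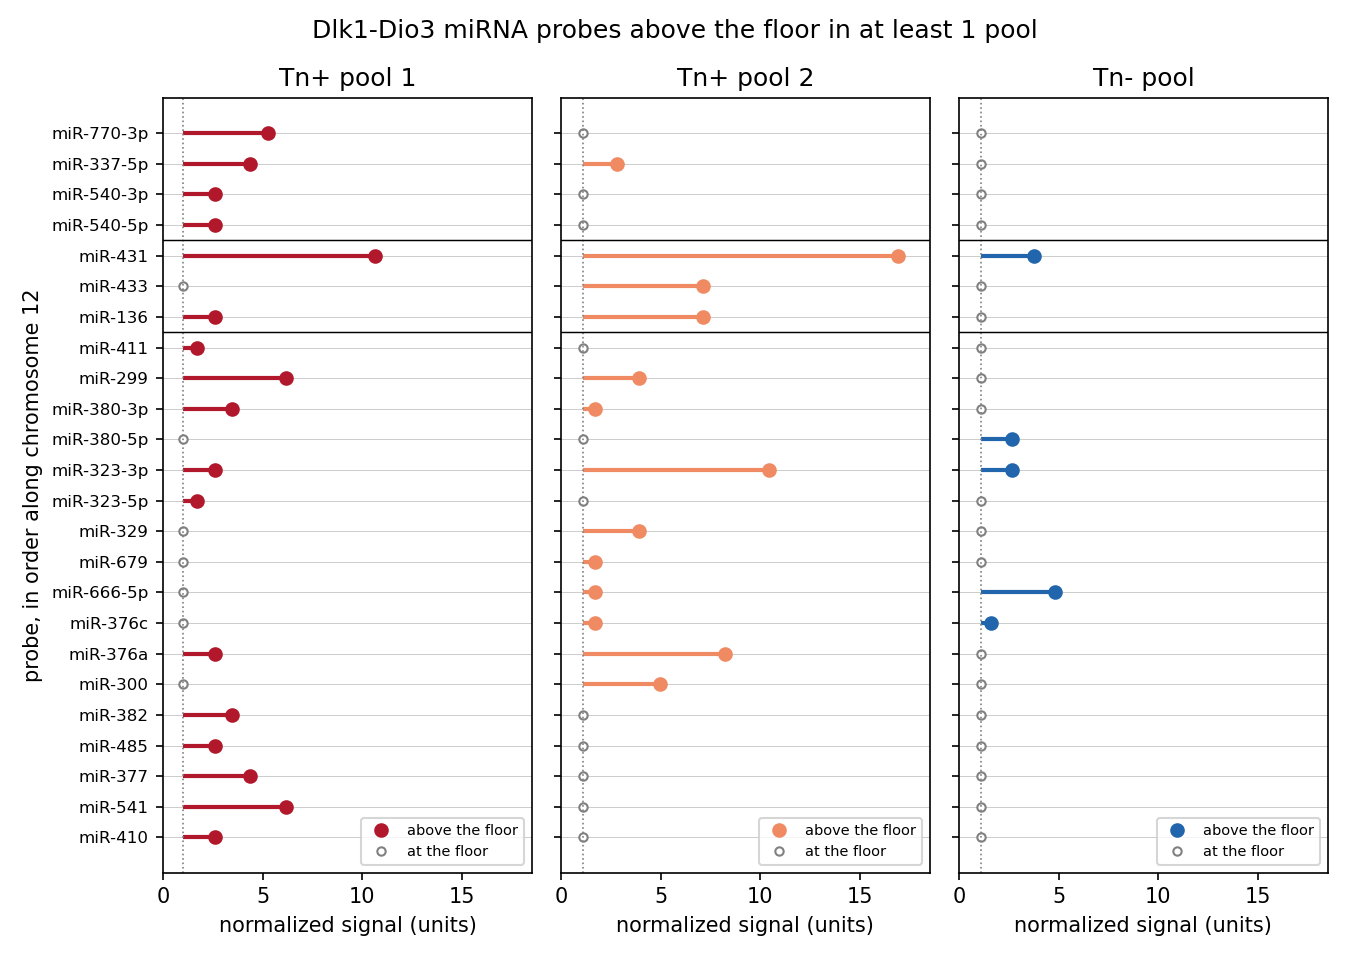
Normalized signal (x axis, units) of the 24 Dlk1-Dio3 probes with any value above the floor, in their order along chromosome 12 (y axis), for both Tn+ pools and then the Tn- pool. Filled points lie above the floor (dotted line), open points at it, and horizontal lines separate the Meg3 side, the Rtl1 antisense group and the run from miR-379 to miR-410. miR-431 is the longest bar in both Tn+ pools, at 10.6 and 16.9 units.

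The remaining members were above the floor in a single Tn+ pool. In Tn+ pool 1 alone these were 10 probes, led by miR-541 with 6.15 units, miR-770-3p with 5.26, miR-377 with 4.36 and miR-382 with 3.46. The others, both arms of miR-540, miR-485, miR-410, miR-411 and miR-323-5p, had 1.67 or 2.57 units. In Tn+ pool 2 alone these were 4 probes, miR-433, miR-300 with 4.97 units, miR-329, induced by neuronal activity in rodents, with 3.88, and miR-679 with 1.70. Of the members above the floor in Tn+ pool 1, 41.2% were also above it in Tn+ pool 2, and 53.8% the other way round. Over all probes these shares were 55.3% and 84.0%. Between the Tn+ pools 10 members differed 2-fold or more on signal + 1, beside 112 of all probes.

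The members above the floor were also counted by position along the cluster. Over all probes 40.3% and 26.5% were above the floor in Tn+ serum, against 15.0% in Tn- serum. Of the 39 probes from miR-770 to miR-300, 12 and 13 were above the floor in Tn+ serum, against 5 in Tn- serum. Of the 19 probes beyond miR-300, from miR-381 to miR-410, 5 were above it in Tn+ pool 1, whereas none was in Tn+ pool 2 or in Tn- serum. The boundary at miR-300 was chosen after the values were seen, so the contrast is a description and no separation of the pools by position is read from it. On the Meg3 side, from miR-770 to miR-665, 4 of 9 probes were above the floor somewhere, namely 4 in Tn+ pool 1 and 1 in Tn+ pool 2, against none in Tn- serum. In the run from miR-379 to miR-410 the counts were 11, 9 and 4 of 41 probes. miR-341 and miR-370, which lie between the Rtl1 antisense group and that run, were at the floor in every pool.

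For 10 hairpins the panel holds a probe for each arm. Both arms were above the floor in the same pool for 2 of them, miR-323 and miR-540, each in Tn+ pool 1. For miR-380 the 3p arm was above the floor in Tn+ serum and the 5p arm in Tn- serum alone. A single arm was above it for miR-337 (5p), miR-666 (5p) and miR-770 (3p). Neither arm was for miR-369, miR-409, miR-434 and miR-673.

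At the floor in every pool were 34 members. Among them were miR-134, which limits dendritic spine size through Limk1 in rat neurons, and miR-494, studied in myeloid suppressor cells of tumour-bearing mice. Also at the floor throughout were miR-127, miR-154, miR-341, miR-370, miR-379, miR-381, miR-495, miR-539 and miR-543. The remainder were miR-337-3p, miR-369-3p, miR-369-5p, miR-376b, miR-409-3p, miR-409-5p, miR-412, miR-434-3p, miR-434-5p, miR-453, miR-487b, miR-496, miR-544, miR-665, miR-666-3p, miR-667, miR-668, miR-673-3p, miR-673-5p, miR-758, miR-770-5p, miR-1193 and miR-1197. A value at the floor sets no ratio. let-7a, miR-24, miR-26a, miR-103 and miR-107, which most cell types make, were also at the floor in every pool, although miR-23a had 393 and 199 units in Tn+ serum, against 15.6 units in Tn- serum. These 6 were chosen after their values were seen. The members are therefore listed at the floor, and no absence is read from it.

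Set against the Tn- pool, few members differed by 2-fold or more in both Tn+ pools. On signal + 1, 2 of 58 members (miR-431 and miR-299) passed 2-fold upward in each Tn+ pool, beside 68 of all 566 probes (12%). Downward 1 member did, miR-666-5p, beside 0.707% of all probes. Taken singly, Tn+ pool 1 passed 2-fold upward for 8 members and Tn+ pool 2 for 8 members, beside 21.2% and 17.0% of all probes, and miR-431 and miR-299 were the members in both sets. None passed 2-fold upward in each Tn+ pool after any of the 3 scalings. Under each scaling miR-666-5p and miR-380-5p passed it downward, beside 21, 33 and 39 of all probes. There both Tn+ values of these 2 members were the floor set for all pools. Of the 24 members above the floor somewhere, 19 were so in Tn+ serum only, where the ratio is taken against the floor of the Tn- pool.

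**Figure D3:**
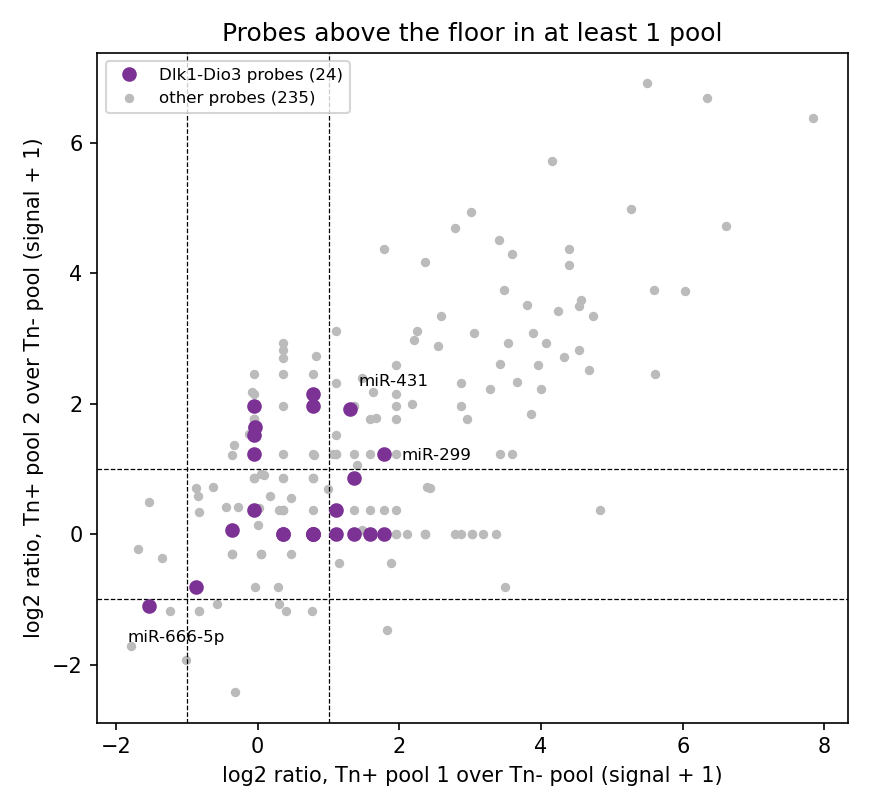
Each point is a probe above the floor in at least 1 pool, with its log2 ratio to the Tn- pool on deposited signal + 1 in Tn+ pool 1 (x axis) and in Tn+ pool 2 (y axis), for 24 Dlk1-Dio3 probes and 235 other probes. Both axes share the Tn- pool, points can coincide, and dashed lines mark 2-fold. miR-431 and miR-299 are the members beyond 2-fold above on both axes, and miR-666-5p is the member beyond 2-fold below on both.

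No member passed the test across the panel. In the limma fit to log2(signal + 1) of all 566 probes, with Benjamini-Hochberg adjustment, 0 members and 0 probes (0.0%) passed an adjusted p of 0.05. Limited to the 259 probes above the floor somewhere, the fit called 29 probes (11.2%) and 0 members. The log2 ratio of Tn+ over Tn- was 1.61 for miR-431 (SE 0.38, limma adjusted p = 0.379) and 1.51 for miR-299 (SE 0.34, limma adjusted p = 0.359). It was -1.32 for miR-666-5p (SE 0.29, limma adjusted p = 0.350) and -0.84 for miR-380-5p (SE 0.16, limma adjusted p = 0.305), whose Tn+ values both lay at the floor, so that its SE holds no spread of the miRNA. These were the 4 members at an unadjusted p under 0.05, 2 higher and 2 lower, beside 9.89% of all probes higher and 1.24% lower. With a pseudocount of 5 there were 2 such members, and in the fit limited to 259 probes, where the SE of a probe was 1.15, there were 0. A single residual degree of freedom per probe, set by the Tn+ pair, underlies these values, and the fit takes the Tn- pool to vary likewise. limma also moves each SE toward the spread over all fitted probes, many of them at the floor in the fit to 566. In the fit limited to 259 probes the SE was the same for every member, 1.15, and so holds none of a member's own spread.

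miRNAs of brain and muscle, tissues in which members of this cluster are studied, gave the following values. Of 8 probes of a brain list, 3 were above the floor somewhere, beside 45.8% of all probes. Their list had sums, floor values included, of 18.1 and 17.0 units in Tn+ serum, against 9.14 units in Tn- serum. The defining neuronal miRNAs miR-124, miR-9 and miR-128 had no value above it, as had miR-137 and miR-138. miR-129-3p had 3.46 and 9.32 units in Tn+ serum, against 1.58 units in Tn- serum. miR-219 had 7.94 units and miR-129-5p 1.67 units in Tn+ pool 1, with the floor elsewhere. A muscle list had 4 of 7 probes above it, with sums of 13.3 and 10.4 units in Tn+ serum, against 8.56 units in Tn- serum. In it miR-1 had 2.57 and 3.88 units in Tn+ serum, against the floor, and miR-499 had 4.36 units in Tn+ pool 1 alone. miR-133a and miR-208a each had 1.67 units and the floor in Tn+ serum, against 1.58 units in Tn- serum, and miR-133b, miR-206 and miR-208b had no value above the floor. In both lists the deposited sums were higher in the Tn+ pools, floor values included and without scaling. The pool totals also differed, at 59444 and 31977 units in Tn+ serum, against 4204 units in Tn- serum. In Tn+ pool 2 a single probe of each list, miR-129-3p and miR-1, was above the floor. The part of the totals in these sums, and of the lists in the member values, was not tested. Serum RNA is cell-free, so a change in the number of releasing cells and a change in RNA released per cell cannot be told apart.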

How the data were processed

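The values are a normalized signal for every probe and pool, which the authors computed in NanoString's Advanced Analysis Software, as the series' design text states. The submitters' processing notes name R 4.4. The sources used here give neither the probes used for scaling nor the background method. Another deposited copy of the signal matched in 1698 of 1698 values. Above the floor, all values of up to 60 units lay within 0.05 steps of a regular grid whose offset is not a whole number of steps, so whole counts were not recoverable and a count model was not fitted. Pools were grouped by their titles. Log2(signal + 1) of all 566 probes was fitted with limma 3.58.1 in R 4.3.3 (lmFit, eBayes, no covariate, Benjamini-Hochberg adjustment). The code was first run on simulated pools, which do not copy the difference in total between the real pools and do not support the fit to them. Beside the limma fit, a rule of size counted probes that passed 2-fold against the Tn- pool in each Tn+ pool, on signal + 1, without a p-value. Adding 1 shrinks the ratios of faint miRNAs, while the deposited scale keeps the difference in total between the pools. The ratios are therefore no lower bounds. Sequences and gene order came from RefSeq tables (GRCm38.p6), and the files name no genome build. Members and lists were chosen with earlier results of these data known. Named by rule were members above the floor in the Tn- pool or in both Tn+ pools, those past the size rule or an unadjusted limma p of 0.05, and the 12 highest. Other members were named only, or chosen after their values were seen. Alternatives changed the pseudocount, the floor, the scaling, the probes tested and the pools used. Python 3.11.15 with pandas 2.3.3 did the rest.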

Additional observations from a re-analysis of the deposited data

How the results depend on the processing

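Detection rests on the lowest grid levels: 15 members reached 3 grid steps in some pool and 2 reached 10 units, against 24 above the floor. Members past 2-fold upward in each Tn+ pool (2 as reported) numbered 0 at a 4-fold limit, 5 at 1.5-fold, 0 with a pseudocount of 5 and 1, miR-431, with floors raised to 3 grid steps. They numbered 0 after scaling the pools by the median of ratios, by the 100 highest probes or to equal totals, where 1 floor, the highest scaled one, was set for all pools. Members past 2-fold downward (1 as reported) numbered 0 at 4-fold, 2 at 1.5-fold, 0 with a pseudocount of 5, 0 with floors at 3 grid steps and 2 under each of the 3 scalings. With a single Tn+ pool, whichever was left out, 8 members were higher and 1 was lower. All-probe counts beside 68 higher and 4 lower were 40 and 0 at 4-fold, 83 and 8 at 1.5-fold, 44 and 0 with a pseudocount of 5, 46 and 1 with floors at 3 grid steps, and 33 and 21, 18 and 33, and 10 and 39 under the scalings. limma called 0 members in the fits to probes above the floor, to those with a mean of 10 units and with a pseudocount of 5, and 3 (miR-376c, miR-380-5p and miR-666-5p, all lower) under each scaling, where both Tn+ values were tied at the floor and the p-values hold no spread. Over all probes these scaled fits called 17, 33 and 35, the fit to probes above the floor 29 of 259, and that to brighter probes 32 of 58, against 0 as reported. At an unadjusted p under 0.05 there were 4. The scalings removed 3.18-, 6.06- and 10.4-fold between Tn+ and Tn- pools. The median log2 ratio of the 24 members (0.64; 19 passed the floor in Tn+ serum only) was 0.286 with a pseudocount of 5, 0.0433 with floors at 3 steps, 0.0323, 0.0 and 0.0 under the scalings, 0.0363 to 0.78 with a Tn+ pool left out, and 1.37 for the members above the floor in both Tn+ pools, a direction that their choice sets, beside 0.71, 0.34, 0.18, 0.03, 0.0, 0.0, 0.38 to 0.78 and 1.60 for all probes. The summed member signal, floor values included, was 1.56-fold higher in Tn+ serum. It turned lower when scaled by the median of ratios (0.971-fold) and to equal totals (0.872-fold), and was 1.46-fold to 1.67-fold with a Tn+ pool left out. Summed over each pool's own members above the floor, the ratio was 4.45 and moves with their number. The log2 ratio of miR-431 turned negative with the 100 highest probes (-0.67) and equal totals (-1.15, with Tn+ pool 1 at the set floor). The cause was not tested. No paired analysis was possible because the groups share only replicate number 1. The unadjusted count, the sum above the floor and the median of 1.37 were added after seeing the data.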

Other observations

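Probes inside the same stretch of chromosome 12 that the numbers used for selection leave out were as faint. Of 6 such probes (miR-432, miR-493, miR-654-3p, miR-654-5p, miR-882 and miR-1188), miR-493 was above the floor, with 2.57 units in Tn+ pool 1 and the floor elsewhere. Of 9 probes for miRNAs at other imprinted loci, 3 were above the floor, all in Tn+ pool 1 and none in the Tn- pool. These were miR-675-5p, encoded in H19, with 5.26 units, miR-483, encoded in Igf2, with 3.46, and miR-335-5p, encoded in Mest, with 2.57 units and 1.70 in Tn+ pool 2. For the Sfmbt2 intron cluster, an imprinted miRNA cluster of rodents, miR-297, miR-466, miR-467 and miR-669 probes were taken by name, without their positions. Of these 33 probes 20 were above the floor, 17 in Tn+ pool 1 and 14 in Tn+ pool 2, against 4 in the Tn- pool. Over all probes 45.8% were above it somewhere, with 40.3% and 26.5% in Tn+ serum, against 15.0% in Tn- serum. The probes of this list are closely related and can share signal, and the difference from the Dlk1-Dio3 cluster was not tested.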
